A study of Mus musculus with 12 samples.

Results

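The 8 chemokine receptor genes described here, Ccr2, Ccr6, Ccr7, Ccr9, Cxcr3, Cxcr4, Cxcr5 and Cxcr6, were taken by name from the 20778 gene symbols measured by mRNA sequencing. The cells were splenic CD8 T cells of C57BL/6 mice, enriched by bead selection. By the labels the mice were 6 weeks old, although the methods of the study give an older age for its mice. All cells spent 6 hours in culture. One group was untreated (Naïve). The others received an antibody to CD3, a component of the T cell receptor, at 1 µg/ml (αCD3), the cytokine interferon gamma at 70 ng/ml (IFNγ), or lipopolysaccharide, a bacterial cell wall component, at 1 µg/ml (LPS). One field of the labels gives the αCD3 and LPS doses in mg/ml, so their unit is uncertain. Each of the 4 groups had 3 libraries, numbered 1 to 3, which gave 12 libraries in all. Nothing in the labels says that libraries of a group came from separate animals or cultures, so the p-values measure the spread between these libraries, which may be technical.

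Chemokine receptors are G protein-coupled receptors that steer cells along gradients of small secreted proteins, the chemokines, through the Gi family of G proteins. Ccr7 and Cxcr5 guide lymphocytes into the T cell zones and B cell follicles of lymphoid organs, and Cxcr4 holds cells in bone marrow and other sites rich in Cxcl12. Cxcr3, Cxcr6 and Ccr2 are receptors of cells that enter inflamed tissue, and Ccr9 and Ccr6 are best known for the gut and other mucosal surfaces. Arrestins, G protein-coupled receptor kinases and Rgs proteins end or dampen their signals.

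Total counts per library were 10.2 M to 27.6 M, and 12122 genes passed the filter on low counts and were tested, among them all 8 receptors. Levels are CPM, a gene's counts relative to the TMM-scaled size of its library. The 7 CD8 T cell markers were the CD8 chains Cd8a and Cd8b1 and the genes Cd3d, Cd3e, Cd3g, Cd5 and Thy1, which CD4 T cells also express. All 7 were detected in all 12 libraries, with a summed level of 1154 to 1250 CPM in Naïve, 1610 to 1825 in αCD3, 1143 to 1203 in IFNγ and 942 to 1087 in LPS. Markers of other cells were also present. The 10 B cell markers, none of which was at 0 in any library, summed to 3414 to 3720 CPM in Naïve, 2391 to 2776 in αCD3, 2734 to 2839 in IFNγ and 2052 to 3073 in LPS. Per kilobase of exon, the B cell receptor component Cd79a reached 620 ± 46.4 CPM in Naïve (SD, n = 3) against 213 ± 6.91 for Cd8b1, a chain of the CD8 co-receptor. Over the 12 libraries the sums were 369 to 926 CPM for monocytes and macrophages, 118 to 218 for neutrophils, 66.9 to 122 for CD4 T cells, 42.2 to 91.4 for dendritic cells, 31.8 to 74.3 for plasmacytoid dendritic cells and 6.85 to 27.3 for NK cells, and at most 1 marker of a list was at 0 in a library, in the neutrophil and dendritic cell lists. Several of the receptors below are also expressed by B cells, monocytes or CD4 T cells. Replicate 1 stood apart in each group: its summed level of the 10 monocyte and macrophage markers was 519.9 CPM in Naïve against 926 and 912 in the others, and in 4 of 4 groups it had the lowest sums of monocyte and macrophage, NK cell and CD4 T cell markers.

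**Figure D1:**
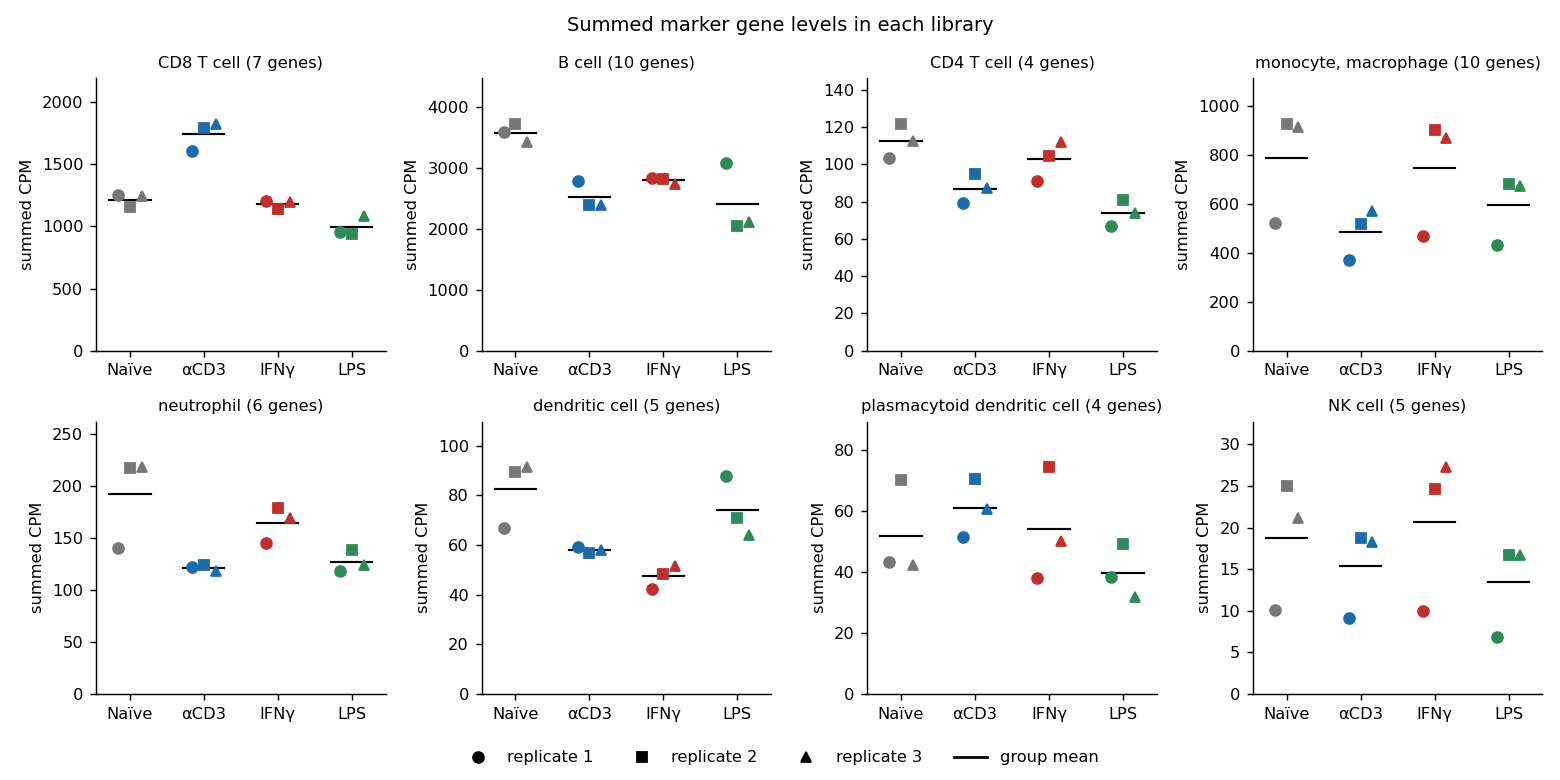
Summed level of the markers of 8 cell types (vertical axes, CPM from 0) in each library, by group; circles, squares and triangles are replicates 1, 2 and 3 and bars are group means. B cell markers summed to 2052 CPM or more in every library, and replicate 1 had the lowest monocyte and macrophage sum in each of the 4 groups.

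A receptor is referred to as called where its adjusted p was under 0.05 in edgeR's quasi-likelihood test, fitted to all 12 libraries, with Benjamini-Hochberg adjustment across every gene tested. Differences are log2 fold changes (log2FC) ± SE. Because libraries with the same number deviated together, a second fit with the replicate number as a term (replicate block) is given wherever it changed a call of a receptor. Of the receptors 6 differed among the 4 groups, namely Cxcr5 (adjusted p = 7.9e-06), Ccr7 (5.38e-05), Cxcr3 (0.00252), Ccr2 (0.00432), Cxcr4 (0.0111) and Ccr6 (0.0128), while Cxcr6 (0.095) and Ccr9 (0.233) did not pass. Of all tested genes, 59.9% were called in the same test, so 6 of 8 was near the background.

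LPS gave the most calls. Against Naïve, 2 receptors rose, Ccr7 and Cxcr5, and 5 fell, Cxcr4, Ccr2, Ccr6, Cxcr3 and Cxcr6. Across all tested genes LPS raised 26.9% and lowered 22.3%, and the receptors' median log2FC was -0.61 against -0.01 for all tested genes. αCD3 raised Ccr7 and lowered Ccr2, Ccr6 and Cxcr3, that is 1 higher and 3 lower, where 22.9% and 15.7% of all genes were called in these directions. IFNγ raised Ccr7 and Cxcr5, where 8.17% of all genes were called higher and 4.27% lower. No receptor was called lower with IFNγ by edgeR, DESeq2 or limma-voom, and 1 of them, Ccr6, was lower at an unadjusted p under 0.05 in edgeR. With the replicate block the counts were 3 higher and 2 lower with IFNγ, 1 and 6 with αCD3, and 2 and 6 with LPS. The block called more of all tested genes too, 13.5% higher and 11.4% lower with IFNγ, 28.1% and 24.2% with αCD3, and 31% and 28.4% with LPS. The 3 comparisons share their Naïve libraries.

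**Figure D2:**
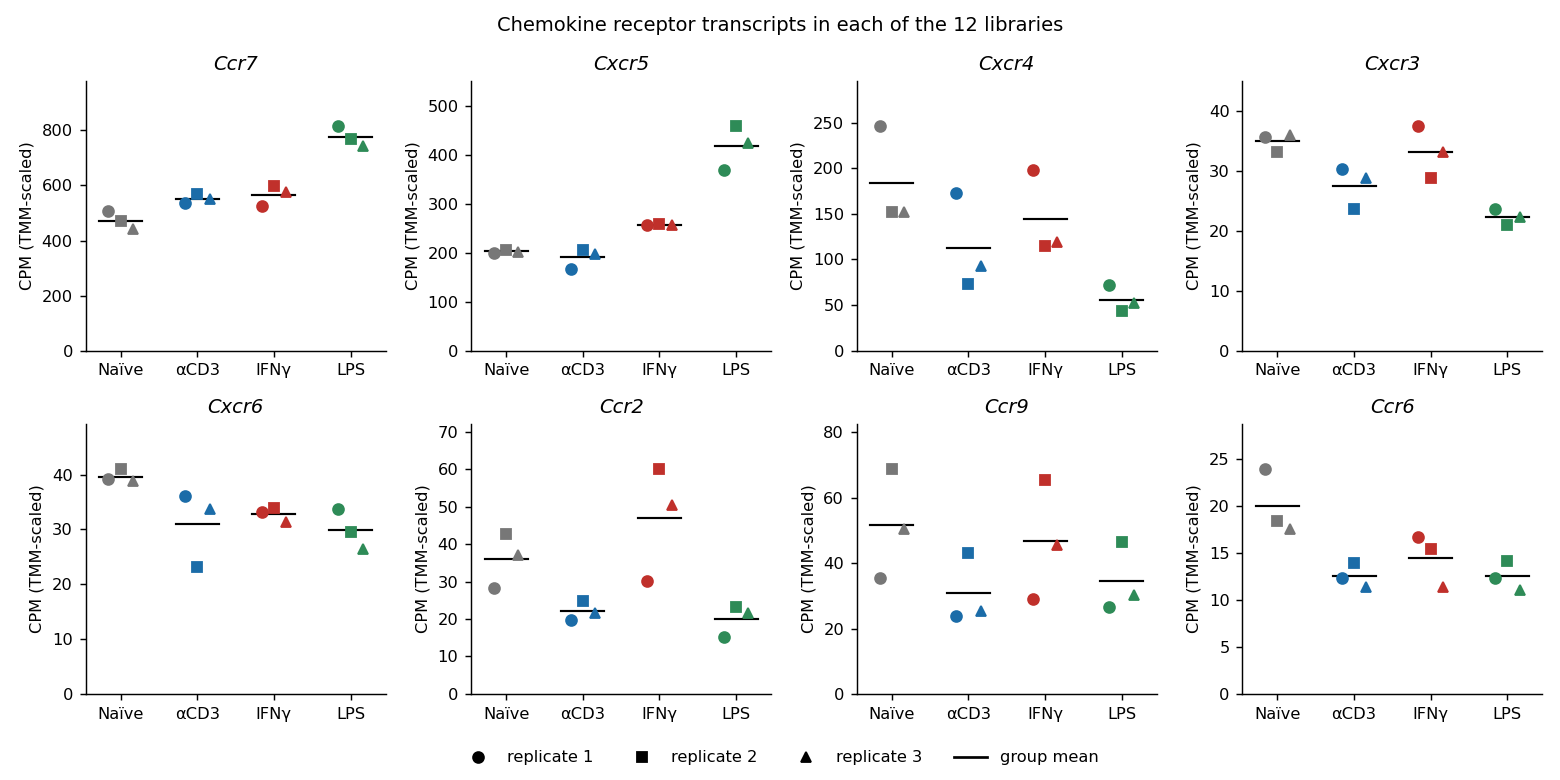
Level of each receptor (vertical axes, CPM from 0) in each of the 12 libraries, by group; circles, squares and triangles are replicates 1, 2 and 3 and bars are group means. Ccr7 and Cxcr5 were highest in the 3 LPS libraries, Cxcr4 was lowest there, and Ccr9 spread as widely within groups as between them.

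Ordered by level per kilobase of exon (CPM per kb), the same receptor led in every group. Ccr7 stood at 238 ± 16.5 CPM per kb in Naïve and 392 ± 18.5 in LPS, above every other receptor in all libraries. In Naïve it was followed by Cxcr4 at 102 ± 30.1 and Cxcr5 at 60.9 ± 0.94, whose ranges did not overlap. In LPS this order was exchanged, with Cxcr5 at 125 ± 13.6 and Cxcr4 at 30.9 ± 7.92. In αCD3 and IFNγ the ranges of Cxcr4 and Cxcr5 overlapped, and their order turned when the length of the principal transcript was used. Cxcr6 and Cxcr3 came next at 12.9 to 20.5 CPM per kb with overlapping ranges in each group. Ccr6, Ccr2 and Ccr9 had the lowest group means, 2.96 to 8.61 CPM per kb, and Ccr2 and Ccr9 overlapped in Naïve, αCD3 and LPS. In IFNγ each of these 3 overlapped its neighbour in the order. With the principal transcript length Ccr9 ranked above Ccr2 in every group.

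**Figure D3:**
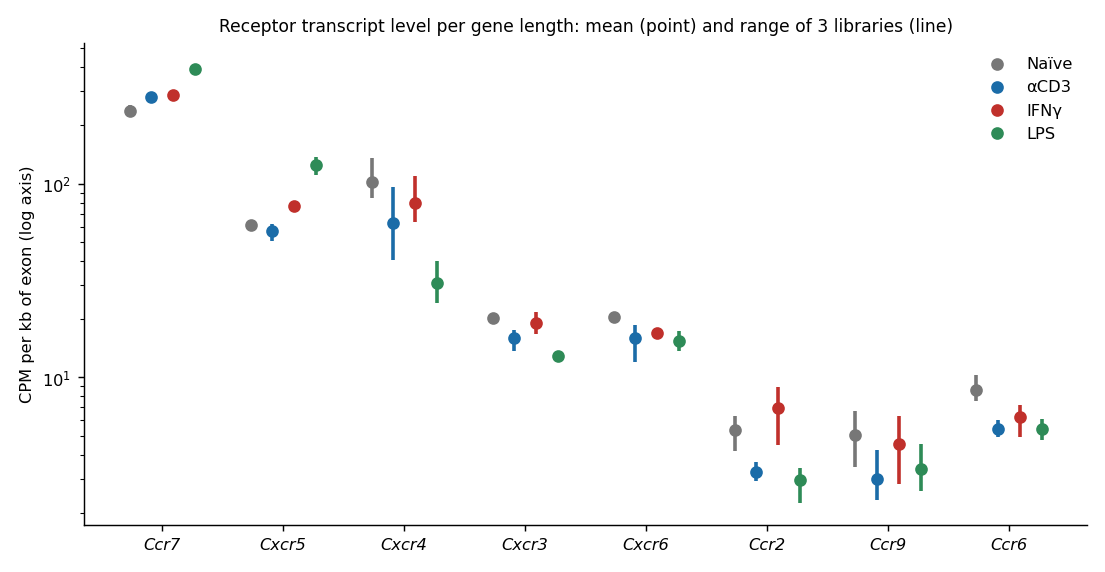
Level of each receptor per kilobase of exon (vertical log axis, CPM per kb) in the 4 groups; points are means and lines the range of the 3 libraries. Ccr7 was above the other 7 receptors in every group, and Cxcr5 and Cxcr4 changed places between Naïve and LPS.

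Ccr7, the receptor for Ccl19 and Ccl21 that brings naïve and central memory T cells into lymph nodes, lies on the minus strand at chr11:99144196-99155077 (GRCm38, mm10). Its level was 505, 469 and 440.2 CPM in Naïve replicates 1 to 3, 536, 568 and 549 in αCD3, 526, 596 and 575 in IFNγ and 816, 769.5 and 743 in LPS. All 9 treated libraries were above all 3 Naïve libraries, and the LPS libraries were above all others. With LPS it rose by 64.6% (log2FC 0.72 ± 0.07, adjusted p = 1.87e-05), a call kept in all 14 alternative fits. The rises with IFNγ (log2FC 0.26 ± 0.07, adjusted p = 0.0322) and αCD3 (0.22 ± 0.07, adjusted p = 0.0263) were smaller. The call for IFNγ was lost without Naïve replicate 2 or 3 or IFNγ replicate 2 or 3 (log2FC 0.21 to 0.26, adjusted p = 0.0991 to 0.132). That for αCD3 was lost without Naïve replicate 2 or 3 or αCD3 replicate 2 or 3 (log2FC 0.18 to 0.23, adjusted p = 0.0667 to 0.104). Scaling by library size alone moved the median of all tested genes from -0.02 to -0.16 with IFNγ, from -0.02 to -0.13 with αCD3 and from -0.01 to -0.22 with LPS (log2FC against Naïve), and under it Ccr7 was 0.12 with IFNγ (adjusted p = 0.223) and 0.11 with αCD3 (0.206), both above that median but no longer called.

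Cxcr5, the receptor for Cxcl13 that leads B cells and follicular helper T cells into follicles, is encoded on the minus strand at chr9:44511787-44561877 and overlaps Bcl9l on the other strand, with which its exons shared the 31-base words that were not unique to it (97.6% were). Its level was 201, 207 and 202 CPM in Naïve replicates 1 to 3, 168, 207 and 197 in αCD3, 257, 258 and 257 in IFNγ and 369, 459 and 424 in LPS. The IFNγ libraries lay above every Naïve and αCD3 library and below every LPS library. LPS gave the largest rise of the 8 receptors, 106% (log2FC 1.04 ± 0.09, adjusted p = 1.06e-05). IFNγ raised it by 26.7% (log2FC 0.34 ± 0.09, adjusted p = 0.0324), while αCD3 differed from Naïve by -0.09 ± 0.09 (adjusted p = 0.451, 95% interval -0.29 to 0.11). The IFNγ call was lost when any of the 6 libraries of that comparison was left out (log2FC 0.33 to 0.35, adjusted p = 0.071 to 0.0994) and with scaling by library size alone (0.20, adjusted p = 0.0952).

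Since Cxcr5 and Ccr7 are expressed by B cells, the B cell markers stand beside these rises. With LPS, 1 of the 10 rose, the transcription factor Pax5 (log2FC 0.39 ± 0.12, adjusted p = 0.0228), and 3 fell, Cd79a (-1.62 ± 0.16, adjusted p = 1.98e-05), Cd79b (-1.88 ± 0.28, adjusted p = 0.000357) and the kinase Blk (-0.63 ± 0.07, adjusted p = 5.54e-05). Their median log2FC was -0.28 with LPS and -0.29 with IFNγ, where 2 of 10 fell and none rose. With the block 3 rose and 3 fell with LPS, and 3 fell with IFNγ. The Pax5 call was lost with library size alone and with only the 2 groups compared. In these fits 5 and 3 of the 10 fell with LPS. The summed B cell level of LPS replicates 2 and 3, 2052 and 2108 CPM, was below that of all Naïve libraries, while the same libraries had the highest Cxcr5 levels of all 12. Over the 12 libraries Pearson's r with the summed B cell, CD4 T cell and CD8 T cell markers was -0.54, -0.55 and -0.76 for log2 Cxcr5 and -0.63, -0.79 and -0.50 for log2 Ccr7. Of the dendritic cell markers 4 were tested, and 1 rose and 1 fell with LPS (1 and 2 with the block). Among them Zbtb46 was at 13.15 ± 0.96 CPM in Naïve and 27.4 ± 0.84 in LPS. The r of log2 Ccr7 with the summed dendritic cell markers was 0.02. The part of the B cell and dendritic cell transcripts in the Cxcr5 and Ccr7 results was not tested, and in bulk RNA fewer cells of a type and less RNA per cell cannot be told apart.

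Cxcr4, the receptor for Cxcl12, lies on the minus strand at chr1:128588199-128592293. Its level was 246, 152 and 152 CPM in Naïve replicates 1 to 3, 173, 73.2 and 92.7 in αCD3, 198, 114 and 119 in IFNγ and 71.8, 43.9 and 52.2 in LPS. Replicate 1 was the highest library of every group. All LPS libraries were nevertheless below all libraries of the other groups, and Cxcr4 fell by 69.6% with LPS (log2FC -1.72 ± 0.36, adjusted p = 0.00284), the largest change of the 8 receptors against Naïve. αCD3 and IFNγ overlapped with Naïve and were not called (log2FC -0.69 ± 0.35, adjusted p = 0.14, and -0.35 ± 0.35, adjusted p = 0.585). With the replicate block both were lower than Naïve (αCD3 log2FC -0.74, adjusted p = 0.000183, and IFNγ -0.36, adjusted p = 0.0247). Without αCD3 replicate 1, αCD3 was also called (-1.15, adjusted p = 0.0176). In each of the 3 replicate numbers Naïve was highest, IFNγ next, αCD3 below it and LPS lowest. Over the 12 libraries log2 Cxcr4 had a Pearson r of 0.79 with the summed B cell markers and 0.25 with the CD8 T cell markers, and the part of B cells in the Cxcr4 result was not tested.

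The promoter of Cxcr4 is shown because this gene fell furthest. The window holds the 250 bases before the RefSeq start, chr1:128592300-128592549 on the minus strand (GRCm38.p6), 5′ to 3′, with letters matching a searched motif in capitals.
Cxcr4: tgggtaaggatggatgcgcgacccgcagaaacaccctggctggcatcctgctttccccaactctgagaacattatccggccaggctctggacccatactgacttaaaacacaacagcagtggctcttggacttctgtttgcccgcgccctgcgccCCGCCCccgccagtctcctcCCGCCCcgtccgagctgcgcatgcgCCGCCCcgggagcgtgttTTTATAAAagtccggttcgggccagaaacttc
The capitals mark 3 GC boxes (GGGCGG or its reverse complement) and 2 overlapping TATA matches (TATAAA on both strands). Of 32851 RefSeq promoter windows of this length, 32.7% held a GC box and 12.4% a TATA match. The other motifs searched on both strands were the κB site GGNNTTTCC (4.93% of windows), the interferon gamma-activated site GAS, TTCNNNGAA (7.02%), the ISRE core GAAANNGAA (7.13%), AP-1 TGANTCA (6.75%) and CCAAT (33.8%), and none of these letters occurred in the Cxcr4 window. Of the 8 receptors 6 had a window, all but Ccr7 and Cxcr5, and the windows of Cxcr3, Cxcr6 and Ccr9 held none of the 7 motifs.

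Cxcr3, the receptor for Cxcl9, Cxcl10 and Cxcl11 that is carried by effector and memory CD8 T cells, lies on the minus strand of the X chromosome at chrX:101731535-101734269. Its level was 35.7, 33.2 and 36.1 CPM in Naïve replicates 1 to 3, 30.4, 23.7 and 28.8 in αCD3, 37.6, 28.8 and 33.2 in IFNγ and 23.7, 21.0 and 22.3 in LPS. The Naïve and LPS libraries did not overlap, and IFNγ covered the Naïve range. Cxcr3 fell by 36.3% with LPS (log2FC -0.65 ± 0.12, adjusted p = 0.000959) and fell by 21.0% with αCD3 (-0.34 ± 0.11, adjusted p = 0.035). The αCD3 call was lost without Naïve replicate 1, 2 or 3 or without αCD3 replicate 2 or 3 (log2FC -0.37 to -0.24, adjusted p = 0.0521 to 0.134). With IFNγ the difference from Naïve was -0.08 ± 0.11 (adjusted p = 0.731, 95% interval -0.33 to 0.17). Over the 12 libraries log2 Cxcr3 had a Pearson r of 0.74 with the summed B cell markers, 0.68 with CD4 T cell and 0.19 with CD8 T cell markers. Of the 4 CD4 T cell markers 3 fell with LPS and 2 with αCD3 (3 and 3 with the block). Of the 7 markers in the CD8 T cell list 5 fell with LPS, with and without the block, and 4 rose with αCD3 (5 with the block). Most genes of that list are not particular to CD8 T cells. Of the CD8 chains, Cd8a was at 234 ± 32.3 CPM in Naïve, 432 ± 104 in αCD3 and 205 ± 22.7 in LPS. Cd8b1 was at 315 ± 10.2, 384 ± 51.15 and 345 ± 54.4. The part of these cells in the Cxcr3 result was not tested.

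The ligands of Cxcr3 moved far more than the receptor. Cxcl10 was at 5.56, 9.46 and 11.4 CPM in Naïve replicates 1 to 3, 20.4, 198 and 138 in αCD3, 309, 450.3 and 438 in IFNγ and 201, 855 and 706 in LPS. Replicate 1 was the lowest library in each group, and every treated library was above every Naïve library. It rose with IFNγ (log2FC 5.51 ± 0.85, adjusted p = 0.00238), LPS (6.07 ± 0.87, adjusted p = 0.000279) and αCD3 (3.76 ± 0.79, adjusted p = 0.00423). Cxcl9 was at 3.15 ± 1.19 CPM in Naïve, 269.5 ± 60.5 in IFNγ (log2FC 6.46 ± 0.92, adjusted p = 0.00164), 26.0 ± 21.6 in αCD3 (3.05 ± 0.87, adjusted p = 0.019) and 14.8 ± 12.7 in LPS (2.30 ± 0.89, adjusted p = 0.0531, called with the block at 2.12, adjusted p = 0.0289). Cxcl9 exceeded its LPS level with IFNγ (log2FC 4.16 ± 0.79, adjusted p = 0.00188), whereas Cxcl10 in the same comparison gave -0.56 ± 0.68 (adjusted p = 0.543).

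Cxcr6, the receptor for the membrane-bound chemokine Cxcl16, lies at chr9:123806475-123811760 on the plus strand, within a region overlapped by Fyco1 on the other strand. Its level was 39.1, 41.0 and 38.7 CPM in Naïve replicates 1 to 3, 36.0, 23.1 and 33.7 in αCD3, 33.1, 34.0 and 31.4 in IFNγ and 33.6, 29.6 and 26.4 in LPS. All 9 treated libraries were below all 3 Naïve libraries. Only the LPS difference was called in the fit without the block (log2FC -0.41 ± 0.14, adjusted p = 0.0365), and it was lost without Naïve replicate 1, 2 or 3 or LPS replicate 2 or 3 (log2FC -0.43 to -0.33, adjusted p = 0.0665 to 0.134). The αCD3 difference was -0.35 ± 0.14 (adjusted p = 0.075), called with the block (-0.35, adjusted p = 0.0464) and without αCD3 replicate 1 (-0.48, adjusted p = 0.0261). It was also called by DESeq2 (-0.36, adjusted p = 0.0474), with library size alone (-0.46, adjusted p = 0.0382) and with only replicates 2 and 3 of each group (-0.48, adjusted p = 0.036). IFNγ gave -0.27 ± 0.14 (adjusted p = 0.277). Its ligand Cxcl16 was not called against Naïve in the fit of all 12 libraries without the block, with means of 38.1 to 51.0 CPM over the 4 groups. The r of log2 Cxcr6 over the 12 libraries was 0.81 with the summed B cell markers and -0.15 with the CD8 T cell markers, and the part of B cells in the Cxcr6 result was not tested.

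Ccr2, the receptor for Ccl2, Ccl7 and Ccl12 that brings monocytes and some effector T cells into tissue, lies at chr9:124101950-124113557 on the plus strand. In its exons 96.5% of 31-base words were unique to it, so some reads could be split with other genes. Its level was 28.2, 42.8 and 37.2 CPM in Naïve replicates 1 to 3, 19.7, 24.8 and 21.7 in αCD3, 30.3, 60.1 and 50.6 in IFNγ and 15.2, 23.1 and 21.6 in LPS. Replicate 1 was the lowest library of each group, and within each replicate number IFNγ was the highest of the 4 groups. Ccr2 fell by 44.2% with LPS (log2FC -0.84 ± 0.25, adjusted p = 0.0182) and fell by 38.8% with αCD3 (-0.71 ± 0.25, adjusted p = 0.044). The LPS call was lost without Naïve replicate 2 (-0.70, adjusted p = 0.0646) or LPS replicate 1 (-0.68, adjusted p = 0.0602). That for αCD3 was lost without Naïve replicate 2 or 3 or without αCD3 replicate 1, 2 or 3 (log2FC -0.80 to -0.57, adjusted p = 0.0715 to 0.141). IFNγ against Naïve was 0.38 ± 0.24 (adjusted p = 0.372) without the block and a call with it (0.36 ± 0.11, adjusted p = 0.032).

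Ccr2 varied with markers of several other cell types. Over the 12 libraries, which share the depth and scaling of each library between both measures, its log2 level had a Pearson r of 0.79 with the summed monocyte and macrophage markers, 0.86 with that of the 4 CD4 T cell markers, 0.82 with neutrophil markers, 0.74 with NK cell markers and -0.11 with that of the CD8 T cell markers. The monocyte and macrophage sum was 519.9 to 926 CPM in Naïve, 369 to 571 in αCD3, 469.5 to 902 in IFNγ and 433 to 681 in LPS, and no marker was at 0. With IFNγ the 2 measures went opposite ways, Ccr2 above Naïve and the monocyte and macrophage sum below it in each of the 3 replicate numbers. Of these 10 markers 6 fell and 1 rose with αCD3, 5 fell and 2 rose with LPS, and 1 fell and 1 rose with IFNγ. With the block 8 fell and 1 rose with αCD3, 7 fell and 2 rose with LPS, and 4 fell and 2 rose with IFNγ. Ly6c2, a marker of inflammatory monocytes that other leukocytes also express, rose in all 3 (log2FC 1.22, 1.99 and 1.98 with αCD3, LPS and IFNγ). Its αCD3 call was lost without the filter on low counts and with limma-voom. The part of monocytes in the Ccr2 result was not tested.

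Ccr9, the receptor for Ccl25 that marks cells bound for the small intestine, lies at chr9:123678439-123784330 on the plus strand, a span that overlaps 6 other genes. In its exons 78.3% of 31-base words were unique, the lowest share of the 8 receptors, with most shared words in the transcript AC165425.1. Its level was 35.4, 68.7 and 50.4 CPM in Naïve replicates 1 to 3, 23.9, 43.2 and 25.5 in αCD3, 28.9, 65.3 and 45.7 in IFNγ and 26.7, 46.4 and 30.2 in LPS. Replicate 1 was lowest and replicate 2 highest in every group, so all groups overlapped. The differences from Naïve were not called (log2FC -0.74 ± 0.36, adjusted p = 0.124 with αCD3, -0.57 ± 0.36, adjusted p = 0.207 with LPS, -0.14 ± 0.35, adjusted p = 0.852 with IFNγ). With the replicate block, αCD3 (-0.73, adjusted p = 0.000131) and LPS (-0.58, adjusted p = 0.00054) were lower than Naïve, and IFNγ exceeded αCD3 (0.57, adjusted p = 0.000812) and LPS (0.41, adjusted p = 0.00566). Over the 12 libraries log2 Ccr9 had a Pearson r of 0.84 with the summed monocyte and macrophage markers, 0.82 with neutrophil, 0.76 with NK cell, 0.75 with CD4 T cell and 0.55 with plasmacytoid dendritic cell markers, and -0.29 with CD8 T cell markers. The plasmacytoid dendritic cell sum was also highest in replicate 2 of every group (70.1, 70.5, 74.3 and 49.2 CPM in Naïve, αCD3, IFNγ and LPS). The part of these cells in the Ccr9 result was not tested.

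Ccr6, the receptor for Ccl20 found on B cells, on T helper cells that make interleukin 17 and on dendritic cells, lies at chr17:8236043-8257141 on the plus strand. Its level was 23.9, 18.5 and 17.6 CPM in Naïve replicates 1 to 3, 12.3, 14.0 and 11.4 in αCD3, 16.7, 15.4 and 11.4 in IFNγ and 12.4, 14.2 and 11.02 in LPS. All 9 treated libraries were below all Naïve libraries. Ccr6 fell by 37.4% with LPS (log2FC -0.68 ± 0.17, adjusted p = 0.0075) and fell by 37.1% with αCD3 (-0.67 ± 0.17, adjusted p = 0.0101), and no alternative lost either call. The IFNγ difference of -0.46 ± 0.17 was not called (adjusted p = 0.109), but was with the replicate block (-0.47 ± 0.12, adjusted p = 0.018) and with scaling by library size alone (-0.60, adjusted p = 0.0364). Among 10 B cell markers 5 fell with αCD3, 2 fell with IFNγ, and 1 rose and 3 fell with LPS. With the block 7 fell with αCD3, 3 fell with IFNγ, and 3 rose and 3 fell with LPS. The r of log2 Ccr6 with their summed level was 0.70 over the 12 libraries. The part of B cells in the Ccr6 result was not tested.

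The promoter of Ccr6 is shown as the one window with GAS letters among the 6 receptors that had a window. The libraries of this gene were below Naïve with every treatment, not with IFNγ alone. The window before its first RefSeq start is chr17:8235793-8236042 on the plus strand (GRCm38.p6), 5′ to 3′, with the 2 matches in capitals.
Ccr6: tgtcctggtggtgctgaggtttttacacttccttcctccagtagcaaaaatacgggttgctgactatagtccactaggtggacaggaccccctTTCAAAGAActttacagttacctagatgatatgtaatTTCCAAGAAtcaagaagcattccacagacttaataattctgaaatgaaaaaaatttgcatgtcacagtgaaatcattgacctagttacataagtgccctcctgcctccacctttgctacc
A second window of Ccr6, before a start further into the gene, held none of the 7 motifs. The window of Ccr2 held 1 ISRE core. These matches describe letters in a window and say nothing of binding.

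Set against each other, IFNγ and the other treatments differed in Ccr2, Cxcr5, Cxcr4, Cxcr3 and Ccr7. IFNγ exceeded αCD3 in Ccr2 (log2FC 1.09 ± 0.25, adjusted p = 0.00603) and Cxcr5 (0.43 ± 0.09, adjusted p = 0.00348), and none was called lower by edgeR, DESeq2 or limma-voom or lower at an unadjusted p under 0.05. Of all genes 15.8% were called higher and 21.4% lower in that comparison, and 23.7% and 25.9% with the block. With the block, Ccr9 (0.57, adjusted p = 0.000812), Cxcr4 (0.38, adjusted p = 0.00965) and Cxcr3 (0.26, adjusted p = 0.0106) were higher as well. Cxcr3 was also called without IFNγ replicate 2 (0.35, adjusted p = 0.0406).

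IFNγ exceeded LPS in Cxcr4 (1.37 ± 0.36, adjusted p = 0.0113), Ccr2 (1.23 ± 0.25, adjusted p = 0.00308) and Cxcr3 (0.57 ± 0.12, adjusted p = 0.00251). It was below LPS in Cxcr5 (-0.70 ± 0.09, adjusted p = 0.000127) and Ccr7 (-0.46 ± 0.07, adjusted p = 4e-04). With the block it also exceeded LPS in Ccr9 (0.41, adjusted p = 0.00566). Of all genes 18% were higher and 22.4% lower, and 25.8% and 26.9% with the block.

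αCD3 was below LPS in Cxcr5 (-1.13 ± 0.09, adjusted p = 2.28e-05) and Ccr7 (-0.49 ± 0.07, adjusted p = 0.000799), where 9.64% of all genes were called higher and 9.76% lower (16.5% and 18.2% with the block). No receptor was called higher by edgeR or limma-voom, 1 was by DESeq2, and 2, Cxcr4 and Cxcr3, were higher at an unadjusted p under 0.05 in edgeR. Cxcr4 was 1.02 ± 0.36 higher with αCD3 than with LPS without overlap of the libraries (adjusted p = 0.0693), and was called with the block (0.96, adjusted p = 0.000114) and without αCD3 replicate 2 (1.26, adjusted p = 0.0424). For Cxcr3 the libraries overlapped, αCD3 replicate 2 lying just below LPS replicate 1, and the difference was 0.31 ± 0.12 (adjusted p = 0.0857). It was called with the block (0.30, adjusted p = 0.00978) and without αCD3 replicate 2 (0.41, adjusted p = 0.0345). For Ccr2 and Ccr6, which fell with both treatments, the 95% intervals of αCD3 against LPS were -0.43 to 0.70 and -0.38 to 0.39.

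**Figure D4:**
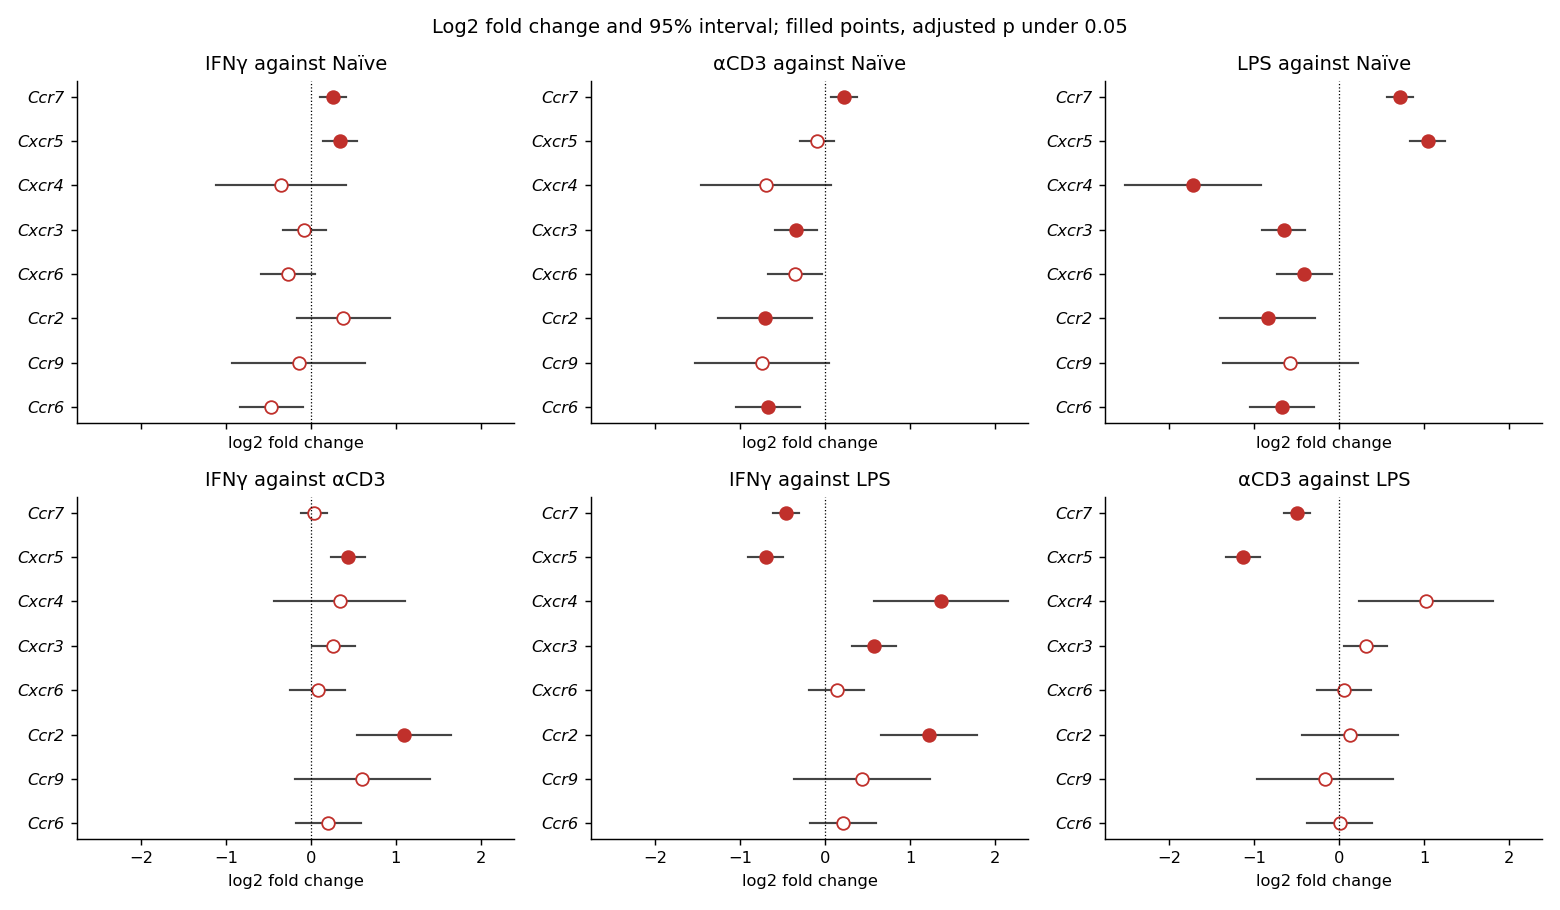
Log2 fold change of each receptor (horizontal axes) in the 6 comparisons, with 95% intervals as lines; filled points had an adjusted p under 0.05 in the fit without the replicate block. Ccr7 and Cxcr5 were the receptors with narrow intervals above 0 for LPS against Naïve, and Cxcr4 and Ccr9 had the widest intervals throughout.

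The receptors also varied together across the libraries. Given as a description over the 12 libraries, which contain the group differences and share scaling, Pearson's r of log2 CPM was 0.94 for Cxcr3 with Cxcr4, 0.87 for Ccr7 with Cxcr5 and 0.80 for Ccr2 with Ccr9. It was -0.85 for Ccr7 with Cxcr3 and -0.81 for Ccr7 with Cxcr4, and 0.02 for Ccr9 with Cxcr4. The genes most like each receptor by the same measure were Pxn (0.963), Tmcc3 and Cflar for Ccr7, and Atf6 (0.981), Bcl3 and Ptp4a2 for Cxcr5. They were Chkb (0.986) and Cd55 for Cxcr4, Tor4a (0.98), Tram2 and Akr1b10 for Cxcr3, and Katnal1 (0.921), Adgrb2 and Donson for Cxcr6. For Ccr2 they were Vps41 (0.971), Bloc1s1 and Edem2, for Ccr9 Fech (0.929), Csf2rb2 and Pls3, and for Ccr6 Tmem8b (0.903), Ppp4r1 and Ercc4.

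The other genes of chemokine signalling were described from 4 lists. Of 16 other chemokine receptors 12 were tested, with 1 higher and 1 lower with IFNγ, 3 and 2 with αCD3, and 3 and 3 with LPS, and median log2FC of -0.38, -0.32 and -0.24. These counts are near the shares of all genes, 8.17% higher and 4.27% lower with IFNγ, 22.9% and 15.7% with αCD3, and 26.9% and 22.3% with LPS. With the block they were 2 and 2 with IFNγ, 3 and 4 with αCD3, and 3 and 4 with LPS, where 13.5% and 11.4%, 28.1% and 24.2%, and 31% and 28.4% of all genes were called. Ccr1 was at 30.8 ± 17.6 CPM in Naïve and the eosinophil receptor Ccr3 at 14.1 ± 8.83, and neither was called against Naïve in the fit without the block. With it, Ccr1 was lower with αCD3 (-1.07, adjusted p = 0.00045) and LPS (-1.48, adjusted p = 6e-05), and Ccr3 with IFNγ (-0.85, adjusted p = 0.0182) and αCD3 (-0.61, adjusted p = 0.0343). Among genes chosen after their values were seen, Ccr4 (log2FC 1.42 ± 0.20, adjusted p = 0.000356) and Ccr8 (2.01 ± 0.33, adjusted p = 0.000807) rose with αCD3, which raised none of the 8 receptors as far. The atypical receptor Ccrl2, chosen in the same way, rose with all 3 treatments (log2FC 2.21 to 3.59).

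Of 13 ligands of the receptors 8 were tested, with 3 higher with IFNγ, 3 with αCD3 and 2 with LPS, where 8.17%, 22.9% and 26.9% of all genes were higher. The αCD3 count was 1 with limma-voom and 2 with only the 2 groups compared, and the LPS count was 3 with the block and with DESeq2. All of those called in the fit of all 12 libraries without the block were Cxcr3 ligands, Cxcl9, Cxcl10 and Cxcl11, the last at 0.22 ± 0.15 CPM in Naïve and 9.63 ± 3.48 in IFNγ. Of all genes 4.27%, 15.7% and 22.3% were called lower in that fit with IFNγ, αCD3 and LPS. Of the ligands none was called lower there or was lower at an unadjusted p under 0.05, and DESeq2 and limma-voom called none lower. With the block 1 was, the Ccr2 ligand Ccl2, named for this call, for αCD3 (log2FC -2.32, adjusted p = 0.00378) and LPS (-2.24, adjusted p = 0.00395). With only replicates 2 and 3 of each group 9 ligands were tested, with 4 higher and 2 lower with IFNγ, 3 and 2 with αCD3, and 3 and 2 with LPS. Of all 12193 genes tested in that fit, 2837 were called with IFNγ (1436 of them higher), 5947 with αCD3 (3252 higher) and 6720 with LPS (3563 higher). The Cxcr4 ligand Cxcl12, the Ccr9 ligand Ccl25 and the Ccr7 ligand Ccl21a were tested and not called in the fit of all 12 libraries without the block, and Ccl7, Ccl12, Ccl19, Ccl20 and Cxcl13 did not pass the filter on low counts.

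Genes of receptor signalling and desensitisation were called lower more often than higher. Of 23 tested, 1 rose and 3 fell with IFNγ, 4 and 11 with αCD3, and 2 and 16 with LPS, with median log2FC of -0.14, -0.36 and -0.54 against -0.02, -0.02 and -0.01 for all tested genes. Of all tested genes 8.17%, 22.9% and 26.9% were called higher and 4.27%, 15.7% and 22.3% lower in these comparisons. With the block the counts were 2 and 9 with IFNγ, 4 and 14 with αCD3, and 3 and 16 with LPS. There 13.5%, 28.1% and 31% of all genes were higher and 11.4%, 24.2% and 28.4% lower. Rac2, the haematopoietic Rac GTPase, was at 640.2 ± 20.1 CPM in Naïve and fell in all 3 comparisons (log2FC -0.38 with IFNγ, -0.65 with αCD3 and -0.34 with LPS, adjusted p = 0.0305, 0.000513 and 0.0144). The receptor kinase Grk2 and the Gi subunit Gnai2 fell with αCD3 (-0.44 and -0.49) and LPS (-0.54 and -0.56) and were not called with IFNγ (-0.16 and -0.14, adjusted p = 0.459 and 0.217), although the block called Grk2 lower there too (-0.17, adjusted p = 0.0353). Rgs16, which speeds the shut-off of G proteins and was chosen after its values were seen, rose with αCD3 from 4.83 ± 0.96 to 50.8 ± 8.54 CPM (log2FC 3.38 ± 0.20, adjusted p = 4.69e-06).

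Of 14 other trafficking receptors, 2 rose and 1 fell with IFNγ, 1 and 6 with αCD3, and 4 and 6 with LPS. Of all genes 8.17% and 4.27%, 22.9% and 15.7%, and 26.9% and 22.3% were called higher and lower in these comparisons. With the block the counts were 4 and 2, 2 and 8, and 5 and 8, against 13.5% and 11.4%, 28.1% and 24.2%, and 31% and 28.4% of all genes. Cd69, which holds back egress by removing S1pr1 from the surface, rose with IFNγ (1.40 ± 0.19), αCD3 (1.37 ± 0.19) and LPS (2.14 ± 0.20). The P-selectin ligand Selplg fell with αCD3 (-0.74 ± 0.07) and LPS (-0.23 ± 0.07) and was not called with IFNγ (-0.18 ± 0.07, adjusted p = 0.115, and 0.0255 with the block). S1pr1, the egress receptor, chosen after its values were seen, fell with αCD3 (-1.41, adjusted p = 0.00319) and LPS (-0.78, adjusted p = 0.0391).

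**Figure D5:**
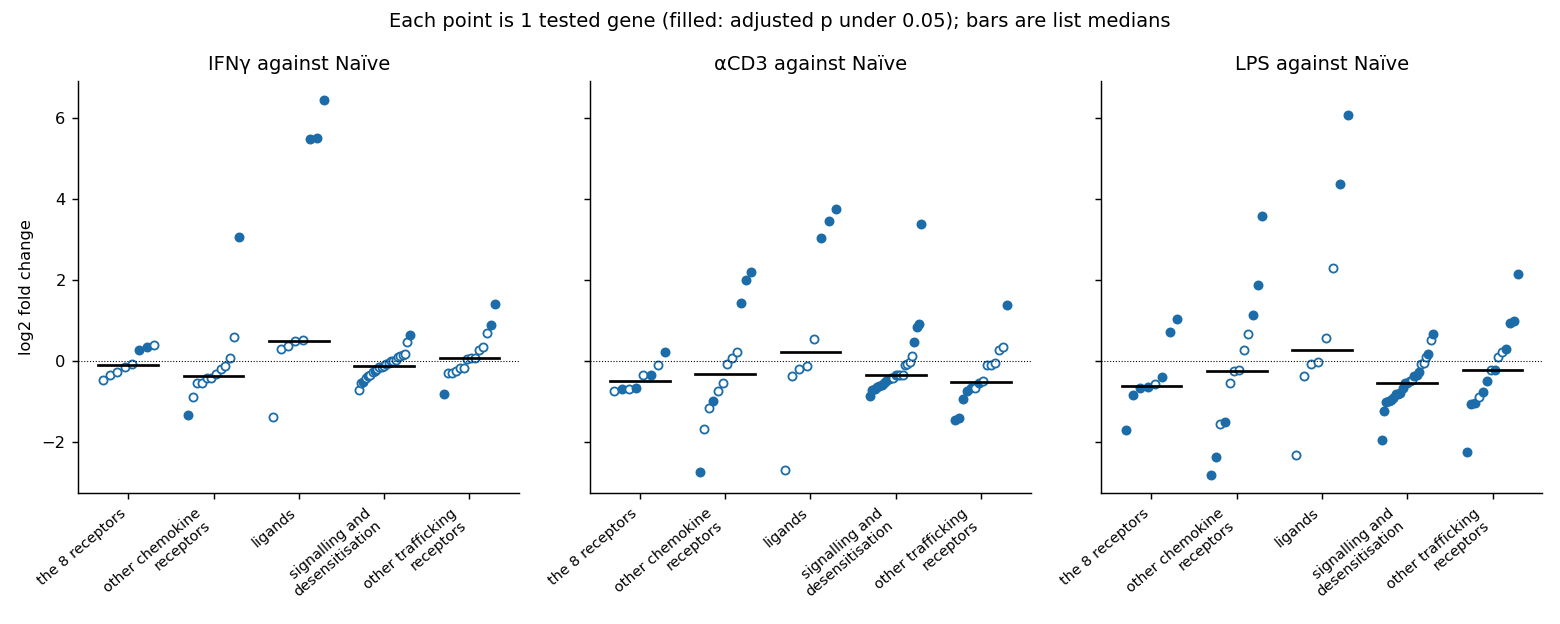
Log2 fold change against Naïve (vertical axis) of each tested gene of the 8 receptors and the 4 lists, in 3 panels for IFNγ, αCD3 and LPS; filled points had an adjusted p under 0.05 and bars are list medians. The ligand list held the highest points in each panel, Cxcl9 or Cxcl10, and 16 of 23 signalling genes fell with LPS.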

How the data were processed

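RNA from splenic CD8 T cells was sequenced in 12 mRNA libraries, whose 4 groups were taken from the labels. The authors quantified reads with kallisto against mm10, and the table they deposited holds estimated counts by gene symbol for each library, not scaled to depth. The kallisto version and annotation are not given in the sources used here. Reads matching several transcripts are split among them by this method. The estimates of Ccr2, Ccr6, Ccr9, Cxcr5 and Cxcr6 were not whole numbers in most libraries, and those of Ccr7, Cxcr3 and Cxcr4 were whole in all.

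Here the estimated counts were rounded and tested with edgeR 4.0.16 in R 4.3.3 (TMM factors, filterByExpr, robust glmQLFit, glmQLFTest), with all 12 libraries in 1 fit, the group as the only term and 6 contrasts. Benjamini-Hochberg adjustment covered the 12122 genes tested, and an adjusted p under 0.05 was a call. CPM are means ± SD (n = 3). Total counts were 10.2 M to 27.6 M per library, and 3 counts correspond to 0.106 to 0.307 CPM. The steps were tested on simulated counts with known changes. Libraries with the same number deviated together over all tested genes (r = 0.117 to 0.401 in 18 of 18 pairs, against -0.354 to 0.102 for pairs with different numbers), and the pairing comes from this check and not from a statement in the labels.

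Alternatives were the replicate block, DESeq2 size factors, library size alone, no filter on low counts, DESeq2 1.42.0, limma-voom (limma 3.58.1), only the 2 groups compared, and leaving out each library. A fit of only replicates 2 and 3 of each group and the principal transcript length were added after the data were seen. The members and gene lists were chosen with earlier results of these data known. Genes named were the 8 receptors, the 3 tested genes with the highest mean CPM in each of 4 lists, and the 3 genes with the highest r to each receptor (log2 CPM, prior count 2, predicted genes left out), and other names, the remaining ligands among them, were chosen after their values were seen, cell markers aside. Some genes that this rule chose are not reported here. The marker lists of neutrophils, dendritic cells and plasmacytoid dendritic cells were summed like the others. Gene positions and exon lengths came from GENCODE M21 on GRCm38, and promoter windows from RefSeq on GRCm38.p6.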

Additional observations from a re-analysis of the deposited data

How the results depend on the processing

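Of the calls against Naïve, those of Ccr7, Cxcr5, Cxcr4, Cxcr3 and Ccr6 with LPS and of Ccr6 with αCD3 were kept in all 14 alternative fits, as were the calls between treatments. The replicate block lost no call of a receptor, added the 13 named beside their results and changed no other call; over all tested genes it raised the calls from 1508 to 3020 for IFNγ, 4681 to 6349 for αCD3 and 5974 to 7207 for LPS against Naïve, 4514 to 6020 for IFNγ against αCD3, 4895 to 6387 for IFNγ against LPS and 2351 to 4202 for αCD3 against LPS. With the block, 2 receptors were called lower for IFNγ against Naïve, 6 lower for αCD3 against Naïve, 5 higher for IFNγ against αCD3 and 2 higher for αCD3 against LPS. With library size alone, 0 were higher and 1 lower for IFNγ against Naïve and 0 higher and 4 lower for αCD3 against Naïve. Under that scaling 715 of 2279 called genes were higher with IFNγ (990 of 1508 with TMM), 2095 of 4762 with αCD3 (2775 of 4681), 2140 of 6520 with LPS (3265 of 5974) and 1691 of 2457 for αCD3 against LPS (1168 of 2351). Without the filter, 0 were higher with IFNγ (adjusted p = 0.0648 for Ccr7 and 0.0618 for Cxcr5), and Ccr2 with αCD3 was no longer called (0.0615). With only the 2 groups compared, 1 was higher with IFNγ and 0 with αCD3 (0.0855 and 0.058 for Ccr7). DESeq2 called 1 higher for αCD3 against LPS and 4 lower for αCD3 against Naïve. With only replicates 2 and 3 of each group, 3 were higher (Ccr2 added, 0.46, adjusted p = 0.0172) and 1 lower with IFNγ, 5 lower with αCD3, 3 higher for IFNγ against αCD3 and 1 higher for αCD3 against LPS. Of all 12193 genes tested, that fit called 2837 with IFNγ (1436 of them higher) and 5947 with αCD3 (3252 higher). It called 5540 for IFNγ against αCD3 (2493 higher) and 3582 for αCD3 against LPS (1743 higher).

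Leaving out 1 library at a time, 0 to 1 receptors were higher with IFNγ, 0 to 1 higher and 1 to 4 lower with αCD3, 3 to 4 lower with LPS and 0 to 2 higher for αCD3 against LPS. Directions turned only among uncalled differences: with the block for Ccr6 (αCD3 against LPS, -0.0019), and when a library was left out for Ccr9 and Cxcr3 (IFNγ against Naïve, -0.46 to 0.12 and -0.19 to 0.016), Cxcr6 and Ccr7 (IFNγ against αCD3, -0.089 to 0.21 and -0.0018 to 0.083), and Cxcr6, Ccr6, Ccr2 and Ccr9 (αCD3 against LPS, -0.071 to 0.23, -0.081 to 0.11, -0.026 to 0.25 and -0.48 to 0.11). The causes were not tested. With 3 libraries a group, differences of Cxcr4 and Ccr9 had 95% intervals over 1.5 log2 units wide.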
